A study of Mus musculus with 12 samples.

Results

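Cell adhesion and the epithelial to mesenchymal transition were followed through 10 genes in whole mouse embryos at embryonic day 7.0. The genes were chosen by name from the 55291 genes of the deposited table. They were the epithelial genes Cdh1, Epcam and Crb2, the mesenchymal genes Cdh2, Vim and Fn1, and the transcriptional repressors Snai1, Snai2, Zeb1 and Zeb2. All 10 were present in the table and all 10 passed the filter on low values. The embryos were untreated, of the wild-type genotype and of the inbred C57BL/6J strain, and each library came from 1 embryo. There were 5 females and 7 males from 7 litters, and only litters 3, 6 and 9 gave both sexes. The series as a whole concerns alcohol exposure at gastrulation, and its design contrasts the sexes, so the question for these genes was whether females and males differ without exposure.

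At gastrulation, cells of the epiblast, an epithelium, enter the primitive streak, lose their apical polarity and their E-cadherin junctions, pass the basement membrane and migrate as mesoderm or endoderm. Snail, Slug and the Zeb proteins are DNA-binding repressors that act on epithelial genes, and in the mouse embryo Snai1 is needed for cells to lose Cdh1 as they become mesoderm. Loss of Cdh1 and gain of Cdh2, Vim and Fn1 is the textbook signature of the transition. Whole embryos hold epithelial and mesenchymal cells together, as well as the extraembryonic tissues, so every level here is a mixture. In such bulk samples, fewer cells of a type and less RNA per cell cannot be told apart.

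Libraries held between 83.2 and 114.4 fragments, by estimate, in units of 1000000, and levels are given as normalized counts, that is, counts divided by the authors' size factors. The normalized totals per embryo lay between 94.1 and 96.7 in the same units. Xist lay between 109 and 560.7 normalized counts in females and between 0 and 38.56 in males, and the Y-linked gene Kdm5d lay at no more than 2.213 in females and at no less than 865.5 in males. Marker lists of the tissues an embryo of this age can carry were looked up as well. None of the 9 epiblast, 12 streak and nascent mesoderm or 13 visceral endoderm markers was at 0 in all embryos. The same held for the lists of maternal decidua, adult blood and endothelium. Detection above 0 therefore does not tell the tissues apart and is no check of the labelled tissue. Of the 7 trophoblast giant cell markers, Prl3b1 and Ctsq were at 0 in all embryos.

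The repressors share a 6-base recognition sequence, CACCTG, read as CAGGTG on the other strand. Promoters of 5 of the 10 genes (Epcam, Snai1, Crb2, Vim and Zeb2) were matched in RefSeq sequences of the GRCm38.p6 build, each spanning 250 bases before to 50 bases after a transcription start. The promoters of Epcam, Snai1 and Crb2 are shown because the first pair held the sequence and the third, of the epithelial gene with the largest difference between the sexes, did not; capitals mark the matches.
Epcam, chr17:87635729-87636028, plus strand: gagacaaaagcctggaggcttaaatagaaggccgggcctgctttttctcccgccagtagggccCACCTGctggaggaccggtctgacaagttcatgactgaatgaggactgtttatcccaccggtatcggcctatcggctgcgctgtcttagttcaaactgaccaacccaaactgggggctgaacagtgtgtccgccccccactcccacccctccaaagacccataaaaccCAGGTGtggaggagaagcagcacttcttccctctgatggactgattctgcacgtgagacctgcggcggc
Snai1, chr2:167537945-167538244, plus strand: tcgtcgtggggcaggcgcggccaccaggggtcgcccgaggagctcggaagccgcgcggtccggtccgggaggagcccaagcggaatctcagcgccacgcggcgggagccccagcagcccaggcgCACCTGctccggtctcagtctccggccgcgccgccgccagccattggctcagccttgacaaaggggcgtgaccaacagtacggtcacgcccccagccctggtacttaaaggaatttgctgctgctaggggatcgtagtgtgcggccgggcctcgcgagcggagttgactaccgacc
Crb2, chr2:37775999-37776298, plus strand: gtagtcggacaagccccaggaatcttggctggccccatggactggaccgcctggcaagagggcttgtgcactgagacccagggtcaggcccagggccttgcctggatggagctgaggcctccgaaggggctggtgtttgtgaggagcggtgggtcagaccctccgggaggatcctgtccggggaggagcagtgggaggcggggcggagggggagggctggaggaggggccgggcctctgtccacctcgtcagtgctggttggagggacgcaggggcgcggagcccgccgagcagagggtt
The Epcam promoter held 2 matches, which began at positions -187 and -19 from the start. The Snai1 promoter held 1 match at position -126. The Crb2 promoter, the Vim promoter and the 4 Zeb2 promoters held none. Among all 32851 promoters of the same length, of 27025 genes, 6640 (20.2%) held at least 1 match and 946 (2.88%) held at least 2. A match is a run of letters and says nothing of binding.

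Per length, Epcam and Cdh1 stood far above the other genes. Levels of different genes were compared as normalized counts per kb of the longest coding transcript. Epcam, a homophilic adhesion molecule of epithelia, stood at 16945 ± 1402 normalized counts per kb (SD, n = 12), and Cdh1, which encodes E-cadherin of the adherens junction, stood at 9753 ± 1207 (SD, n = 12). Epcam was above Cdh1 and Cdh1 above the next gene in all 12 embryos. Fn1, which encodes the matrix glycoprotein fibronectin, followed at 3138 ± 549.4 (SD, n = 12), and Snai1, the Snail repressor, at 2903 ± 468.3 (SD, n = 12). These neighbours did not differ beyond their spread: Fn1 was the higher in 8 of 12 embryos, and their order turned when lengths were taken as merged exons, where Fn1 was the higher in 1 of 12. Cdh2, which encodes N-cadherin, and Vim, which encodes the intermediate filament protein vimentin, stood at 1574 ± 237.2 and 1518 ± 325.6 normalized counts per kb (SD, n = 12), with Cdh2 higher in 8 of 12. Both were below Snai1 in their mean, and Snai1 was above Cdh2 in every embryo.

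The remaining genes formed the low end of the order. Crb2, an apical Crumbs-family protein that mouse epiblast cells need in order to leave the streak, stood at 211.3 ± 61.7 normalized counts per kb (SD, n = 12). Zeb2 stood at 126.3 ± 35 (SD, n = 12) and was below Crb2 in 10 of 12 embryos. Snai2, which encodes Slug, and Zeb1 closed the order at 30.1 ± 25.3 and 29.3 ± 12.3 normalized counts per kb (SD, n = 12), and Snai2 was the higher in 5 of 12, so their order was not resolved. Within pairs of relatives, the mean level per kb of Snai1 was 96.5 times that of Snai2 and that of Zeb2 was 4.31 times that of Zeb1. The mean level per kb of Cdh1 was 6.2 times that of Cdh2. In each of these comparisons the order held in all 12 embryos.

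**Figure D1:**
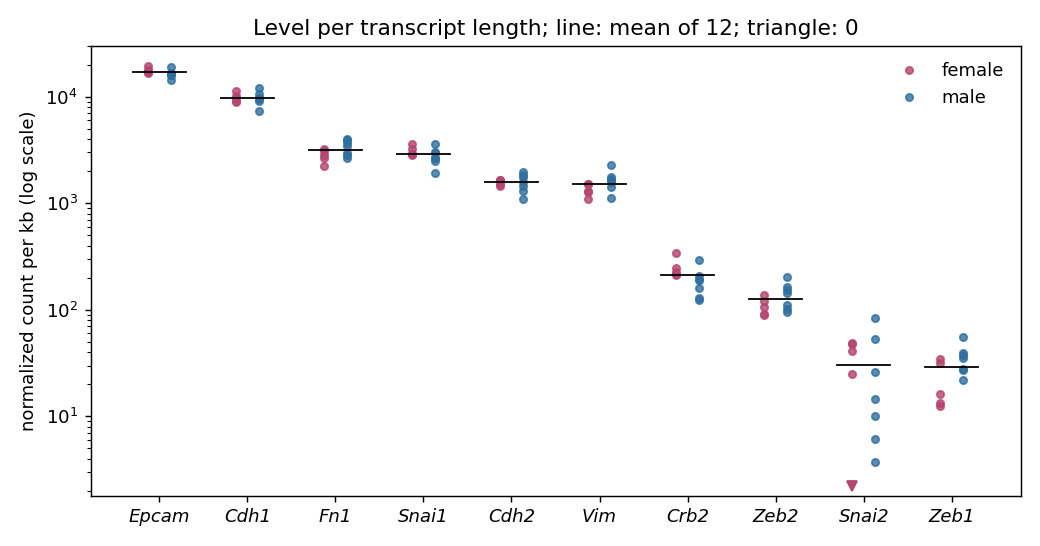
Level of the 10 genes per length, as normalized counts per kb of the longest coding transcript on a log axis, with points for single embryos coloured by sex and bars for the mean over 12 embryos; Snai2 in female replicate 2 was 0. Epcam and Cdh1 lie at the top and Snai2 and Zeb1 at the bottom, with means from 16945 down to 29.3.

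Among the epithelial genes, Cdh1 had close means in the sexes. It lies on GRCm38 chr8:106603351-106670246. Females 1 to 5 had 50338, 39313, 43064, 44630 and 40322 normalized counts, and the males ranged from 32578 in replicate 3 through a median of 42668 to 53228 in replicate 6. The sexes overlapped fully, with the highest and the lowest embryo both male. The means were 43533 ± 4355 (SD, n = 5) in females and 42969 ± 6296 (SD, n = 7) in males.

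Epcam varied least of the 10. It lies on chr17:87635979-87651129. The females had 39733, 36420, 33932, 35761 and 35059 normalized counts, and the males ranged from 29392 in replicate 4 through a median of 33230 to 38938 in replicate 6. Of the males, 6 were below every female, and male replicate 6 lay within the female range. The means were 36181 ± 2189 (SD, n = 5) and 33415 ± 2842 (SD, n = 7). On the log2 scale its SD over the 12 embryos was 0.12, and 12.6% of the 16455 genes tested had a smaller SD. Its mean was above that of 96.9% of them, and the SD was not compared among genes of like level.

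Crb2, on chr2:37776249-37799103, had the largest female excess of the epithelial genes. The females had 1343, 1377, 1440, 2161 and 1563 normalized counts, and the males ranged from 793.7 in replicate 5 through a median of 1216 to 1857 in replicate 4. Again 6 males were below every female, here all but replicate 4, while female replicate 4 was the highest embryo. The means were 1577 ± 337.3 (SD, n = 5) and 1181 ± 362.2 (SD, n = 7). An exon of Crb2 overlaps 113 bases of Dennd1a on the opposite strand, a gene at a mean of 778.2 normalized counts; the sources used here do not say whether counting used strand, so reads in that stretch could belong to either.

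Among the mesenchymal genes, Cdh2 had close means in the sexes and a wider range in males. It lies on chr18:16588877-16809246. The females had 7025, 7826, 8030, 7291 and 7999 normalized counts, and the males ranged from 5284 in replicate 7 through a median of 7669 to 9522 in replicate 3. The 5 females fell in the middle of the male range, with 3 males above all of them and 3 below. The means were 7634 ± 451.7 (SD, n = 5) and 7615 ± 1511 (SD, n = 7), which are coefficients of variation of 5.92% and 19.8%; the difference in spread was not tested.

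Vim, on chr2:13573927-13582826, was higher in most males. The females had 2779, 2846, 3313, 2389 and 3337 normalized counts, and the males ranged from 2455 in replicate 6 through a median of 3645 to 5000 in replicate 7. Of the males, 5 were above every female, whereas male replicate 6 lay near the bottom of the female range. The means were 2933 ± 398.5 (SD, n = 5) and 3613 ± 777.1 (SD, n = 7).

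Fn1, on chr1:71585520-71653200, also had a higher mean in males. The females had 22200, 23804, 25777, 26716 and 18456 normalized counts, and the males ranged from 22161 in replicate 6 through a median of 28986 to 33624 in replicate 2. Male replicates 2, 4, 5 and 7 were above every female and the other 3 males lay inside the female range. The means were 23391 ± 3267 (SD, n = 5) and 28023 ± 4551 (SD, n = 7).

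Of the repressors, Snai1 was by far the most abundant. Snai1 lies on chr2:167538195-167542814. The females had 4721, 4614, 4749, 5283 and 5867 normalized counts, and the males ranged from 3108 in replicate 7 through a median of 4327 to 5836 in replicate 4. Male replicate 7 was the lowest embryo, and 4 males were below every female. The means were 5047 ± 526.9 (SD, n = 5) and 4463 ± 840.0 (SD, n = 7).

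Snai2, on chr16:14705852-14709385, was near the limit of detection in part of the embryos. The females had 97.3, 0, 82.5, 99.1 and 50.5 normalized counts, and the males ranged from 7.49 in replicate 2 through a median of 29.7 to 168.6 in replicate 7. The count of 0 in female replicate 2 allows a level of up to 2.99 normalized counts (3 fragments, counting error only). The SD over embryos was 2.08 on the log2 scale, larger than that of 91.3% of the genes tested. Its mean was above that of only 19.2% of them, and here too genes of like level were not compared. The sexes overlapped over most of their ranges, with 2 males above every female and the female at 0 below every male.

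Zeb1, on chr18:5591860-5775467, was lower in 3 of the females than in any male. The females had 76.7, 200.2, 94.3, 73 and 183.7 normalized counts, and the males ranged from 126.4 in replicate 4 through a median of 202.9 to 319.0 in replicate 7. Female replicates 2 and 5 reached the middle of the male range, while replicates 1, 3 and 4 stayed below it. The means were 125.6 ± 61.4 (SD, n = 5) and 201.9 ± 63.2 (SD, n = 7). Counting alone gives a coefficient of variation of about 7.6% at this level, against 42% over the 12 embryos.

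Zeb2, on chr2:44983632-45117395, had its highest level in the same embryo. The females had 824.3, 828.3, 1099, 966.0 and 1252 normalized counts, and the males ranged from 862.3 in replicate 1 through a median of 1324 to 1854 in replicate 7. Of the males, 4 were above every female and the other 3 lay inside the female range. The means were 993.8 ± 183.3 (SD, n = 5) and 1266 ± 358.0 (SD, n = 7). Male replicate 7 thus held the highest Vim, Snai2, Zeb1 and Zeb2 and the lowest Snai1 and Cdh2 of the 12 embryos.

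**Figure D2:**
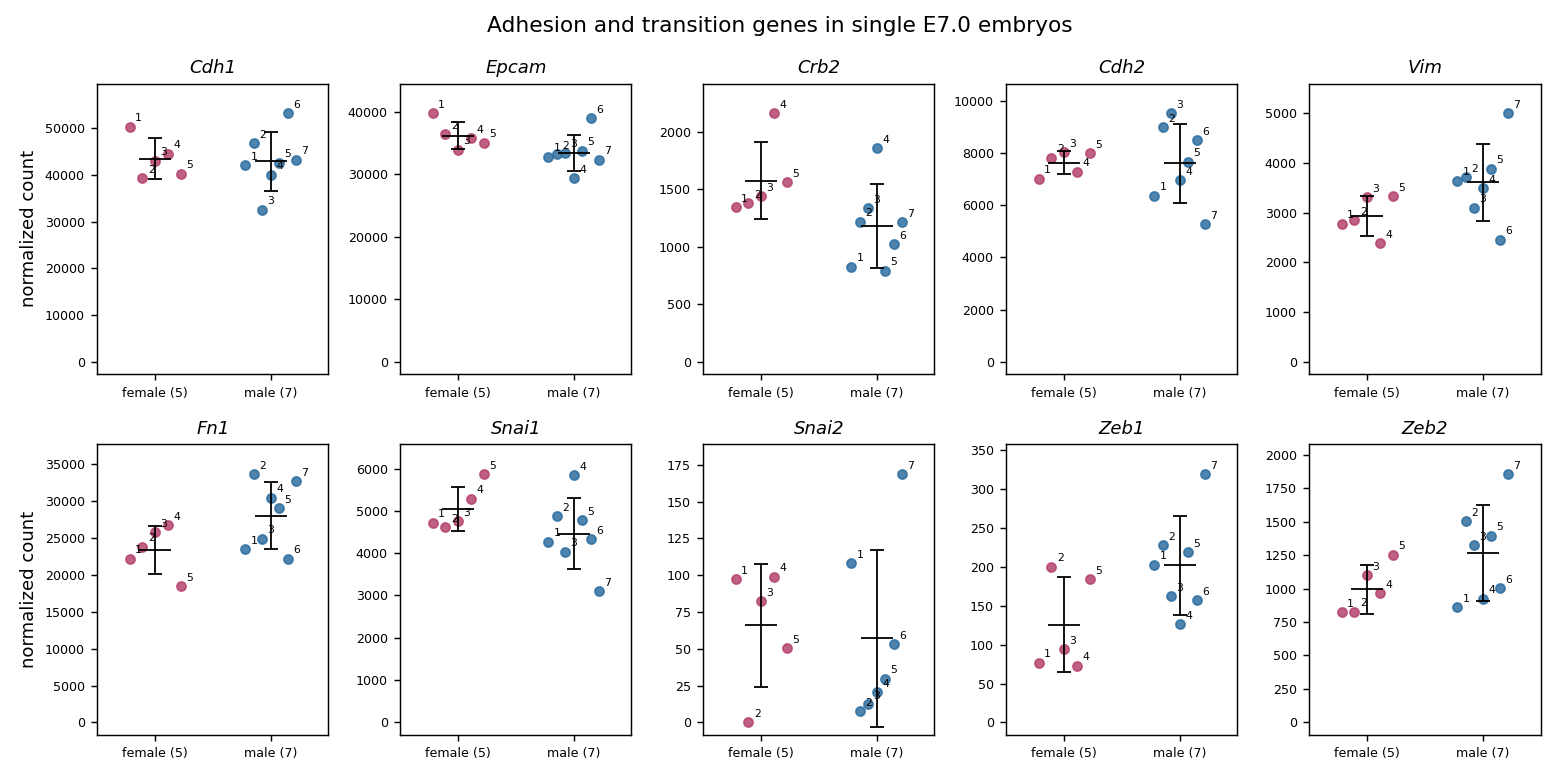
Normalized counts of the 10 genes in each embryo (y axis, linear, one scale per gene) by sex (x axis), with points numbered by replicate within the sex and bars for the mean and SD of 5 females and 7 males. The sexes overlap for every gene; male replicate 7 is the highest embryo for Vim, Snai2, Zeb1 and Zeb2 and the lowest for Snai1 and Cdh2.

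None of the 10 genes passed the test between the sexes. The test was limma on log2(normalized count + 1) over all genes, with Benjamini-Hochberg adjustment. It called 7 of 16455 genes (0.0425%) at an adjusted p below 0.05, or 4 with litter as a fixed block and 7 with litter as a random block. The adjusted p of the 10 genes lay between 0.434 and 0.992. The authors' deposited table gave another count: 214 of 18821 genes with an adjusted p (1.14%) passed the same threshold, and again 0 of the 10. Without adjustment, 3 of the 10 were below 0.05 by limma, where 10.8% of all genes tested were. Of the 3, 1 was higher in females, beside 5.13% of all genes tested, and 2 were lower, beside 5.64%. In the authors' deposited table the unadjusted p was below 0.05 for 4 of the 10 and for 8.44% of the 25323 genes with a p. Groups that did not overlap occurred for 0 of the 10 genes and for 0.772% of all genes tested.

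By limma, the largest differences were in Zeb1, Crb2, Zeb2, Vim and Fn1, leaving aside Snai2, whose interval spanned most sizes. Females minus males on the log2 scale, Zeb1 differed by -0.76 (SE 0.33, 95% interval -1.47 to -0.04, adjusted p = 0.434 by limma). Crb2 differed by 0.45 (SE 0.20, interval 0.02 to 0.87, adjusted p = 0.435 by limma). Fn1 differed by -0.26 (SE 0.12, interval -0.50 to -0.01, adjusted p = 0.443 by limma). These are the 3 genes with an unadjusted limma p below 0.05, at 0.0389, 0.0404 and 0.0428. By the exact permutation test over the 792 splits of the embryos, two-sided and unadjusted, Zeb1 had p = 0.0455, Crb2 0.072 and Fn1 0.0859, where the smallest p possible is 0.00126.

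For the other genes the log2 intervals included 0. Zeb2 differed by -0.32 (interval -0.73 to 0.09), Vim by -0.28 (-0.59 to 0.03), Snai1 by 0.19 (-0.07 to 0.46) and Epcam by 0.12 (-0.01 to 0.25). The estimates of the cadherins lay closest to 0. Cdh1 differed by 0.03 (-0.18 to 0.23), which leaves female over male ratios from 0.883 to 1.18, and Cdh2 by 0.03 (-0.24 to 0.29), which leaves 0.848 to 1.23. Snai2 differed by -0.10 (-2.48 to 2.29), and its sign turned to 1.17 without female replicate 2, the embryo at 0, and to 0.17 and 0.28 without male replicates 1 and 7. The small differences of Cdh1 and Cdh2 also turned sign with a single embryo left out, to -0.04 for Cdh1 without male replicate 3 and to -0.06 for Cdh2 without male replicate 7. Of the 10 genes, 5 were higher and 5 lower in females by the fit, beside 49.8% higher among all genes tested.

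Within the 3 litters that held both sexes, Zeb1 was lower in the female each time, by log2 differences of -1.31, -0.97 and -0.79 in litters 3, 6 and 9. Zeb2 was also lower in the female in each, at -0.77, -0.11 and -0.57. Crb2 was higher in the female in each, at 0.07, 0.68 and 0.36, and so was Snai1, at 0.09, 0.06 and 0.92. Cdh1, Epcam, Cdh2 and Snai2 changed sign between the litters. Fn1 and Vim were lower in the female in litters 3 and 9, and in litter 6 stood at 0.02 and 0.10. Each litter holds 1 female and 1 or 2 males, so these are values without a test.

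**Figure D3:**
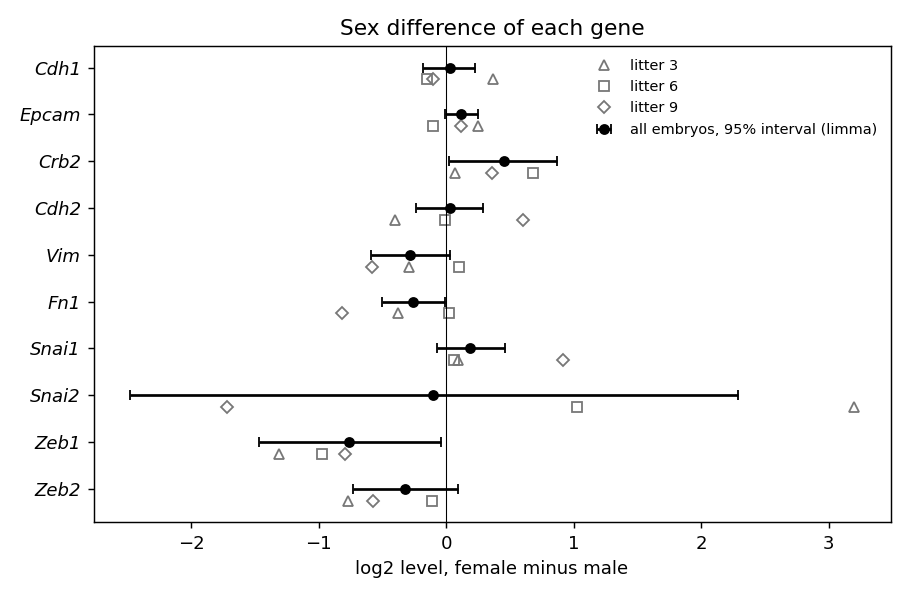
Female minus male difference on the log2(normalized count + 1) scale for the 10 genes, with points for the limma estimate, bars for its 95% interval, and small marks for the differences within litters 3, 6 and 9. Intervals of Zeb1, Crb2 and Fn1 lie on 1 side of 0 before adjustment, and that of Snai2 spans -2.48 to 2.29.

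Ranges of tissue marker levels are given for both sexes, with no test. The summed normalized counts of the 9 epiblast markers ranged from 475510 to 550714 in females and from 377728 to 578909 in males. Those of the 12 streak and nascent mesoderm markers ranged from 114483 to 129134 in females and from 67072 to 125313 in males. The 5 giant cell markers tested summed to between 5654 and 24471 in females and between 8444 and 62585 in males. In each of these lists the males covered a wider range than the females, with 7 males against 5 females. The parietal endoderm and adult blood lists, given below, had the wider range in females. The visceral endoderm markers ranged from 464474 to 634837 in females and from 260112 to 559788 in males. Extraembryonic mesoderm and blood progenitor markers ranged from 15450 to 20714 and from 4888 to 22040, and those of extraembryonic ectoderm and ectoplacental cone from 7759 to 13176 and from 7604 to 17379. Parietal endoderm markers ranged from 87146 to 225272 and from 87897 to 193464, and maternal decidua markers from 9775 to 30381 and from 13568 to 51424, females first. The low lists of adult blood and endothelium ranged from 423 to 7869 and from 33 to 1065 in females, and from 1243 to 7411 and from 314 to 2565 in males. Male replicate 7 was the lowest embryo on the epiblast and streak lists. Genes of the streak list did not all go the same way in it. Eomes was at its lowest of all embryos there, at 5550 normalized counts, whereas Tbx6 and Msgn1 were at their highest, at 2062 and 151.7. The part of the tissue marker differences in the values of Vim, Fn1, Zeb1, Zeb2 and Crb2 between the sexes was not tested.

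The balance of the cadherins had the same mean in the sexes. The log2 ratio of Cdh1 to Cdh2 was 2.51 ± 0.22 (SD, n = 5) in females and 2.51 ± 0.39 (SD, n = 7) in males. It ran from 1.77 in male replicate 3, which had the least Cdh1 and the most Cdh2, to 3.04 in male replicate 7. The log2 ratio of Snai1 to Zeb2, repressors of different families, lay between 2.11 and 2.52 in females and between 0.75 and 2.66 in males. Its lowest value again came from male replicate 7, and the next lowest was 1.61 in male replicate 3. These ratios are of normalized counts and were not tested.

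Across the 12 embryos, Epcam ran against Vim, and Vim ran with Zeb1 and Zeb2, although none of the 45 pairs of genes passed adjustment. Correlations were taken on log2(normalized count + 1), with permutation tests adjusted over the 45 pairs. Epcam and Vim had Pearson r = -0.68 (permutation p = 0.0162, adjusted p = 0.243) and Spearman rho = -0.78 (p = 0.00371, adjusted p = 0.0835). Without female replicate 1 and male replicate 4, the embryos farthest from the median of Epcam, r was -0.83. With each sex centred on its mean it was -0.57, and in the 7 males alone -0.61.

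Vim and Zeb1 had r = 0.71 (permutation p = 0.00961, adjusted p = 0.243) and rho = 0.81 (p = 0.002, adjusted p = 0.0835). Without male replicate 7 and female replicate 4, the extremes of Vim, r was 0.41 with a permutation p of 0.245. Leaving out the extremes narrows the range of Vim, which can by itself weaken r. Whether the fall came from that or from reliance on these embryos was not tested. With a single embryo left out, r lay between 0.58 and 0.79. Vim and Zeb2 had r = 0.69 (permutation p = 0.0124, adjusted p = 0.243) and rho = 0.61, and r = 0.49 without the same pair of embryos. The remaining pairs with an unadjusted p below 0.05 for r were Epcam with Fn1 and Zeb1 with Zeb2. Epcam with Fn1 had r = -0.60 and rho = -0.66, and Zeb1 with Zeb2 had r = 0.61 and rho = 0.59. With each sex centred on its mean, r was -0.46 and 0.49 for these, and 0.59 and 0.61 for Vim with Zeb1 and with Zeb2. Over the means of the 7 litters, r was -0.56 for Epcam with Vim and -0.59 for Epcam with Fn1. It was 0.76 for Vim with Zeb1, 0.46 for Vim with Zeb2 and 0.24 for Zeb1 with Zeb2. In all, 5 of 45 pairs had an unadjusted p below 0.05 by Pearson and 8 of 45 by Spearman. Among all pairs of tested genes, 6.54% reached the size of r that has such a p over 12 embryos (0.576), and 5.74% the size of rho (0.594).

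An absolute r of at least 0.7 was reached by 1 of the 45 pairs (2.22%), beside 1.73% of all pairs of tested genes. This share is near the background and is no result about the 10 genes. Cdh1 and Cdh2 had r = -0.17, and Cdh1 and Snai1 had r = 0.01, neither with an unadjusted p below 0.05.

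**Figure D4:**
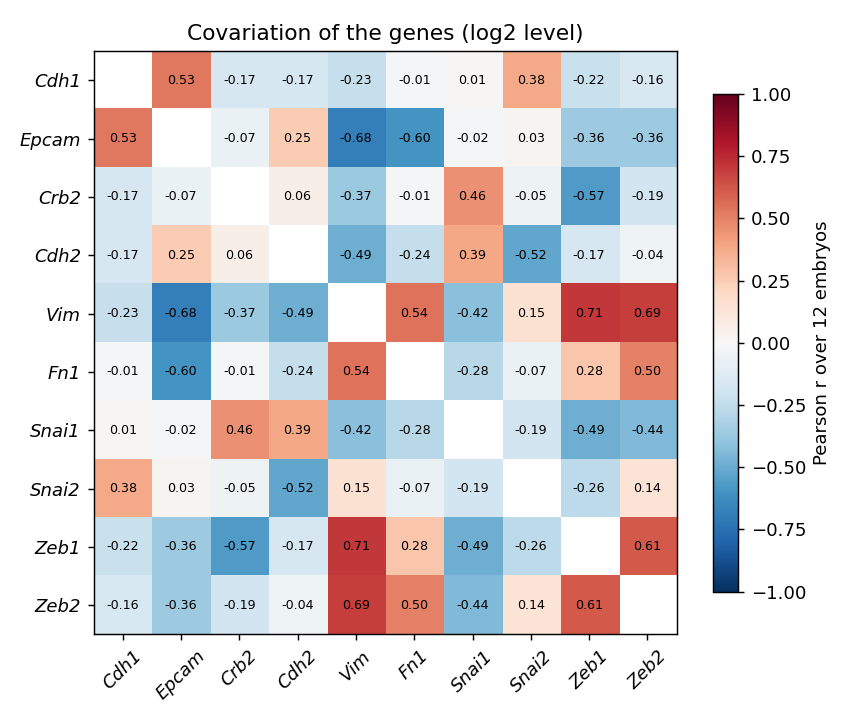
Pearson r between the 10 genes over 12 embryos on log2(normalized count + 1), with colour and printed value giving r. Vim with Zeb1 (0.71) and with Zeb2 (0.69) have the highest of the 45 values and Epcam with Vim (-0.68) the lowest.

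Vim, Fn1 and Zeb2 were high where epiblast markers were low, and Epcam was high where they were high. Each gene was compared with 10 marker lists, a list's value being the mean of its genes' log2 levels relative to the 12 embryos. None of the 100 relations passed adjustment. Unadjusted, 9 had a permutation p below 0.05 by Pearson and 10 by Spearman. The share over all tested genes was not computed. Of the 9, Vim and Fn1 with the streak list had r = -0.70 and -0.63. Cdh1 with the extraembryonic mesoderm and blood progenitor list had -0.62. Snai1 with the parietal endoderm list had 0.62, and 0.13 without female replicate 5 and male replicate 4, the extremes of that list. Vim and the epiblast list had r = -0.83 (permutation p = 0.00082, adjusted p = 0.082) and rho = -0.76 (p = 0.0057, adjusted p = 0.283). Without male replicates 7 and 5, the extremes of the list, r was -0.61 with a permutation p of 0.0629. Fn1 and the epiblast list had r = -0.79 (permutation p = 0.002, adjusted p = 0.0873) and rho = -0.81. Without the same pair of embryos, r of Fn1 was -0.74. Zeb2 and the epiblast list had r = -0.73 (permutation p = 0.00744, adjusted p = 0.186) and rho = -0.72. For Zeb2, r was -0.41 without that pair, with a permutation p of 0.24, and -0.53 without male replicate 7 alone. The adjusted p of Vim with the epiblast list was 0.048 without female replicate 4 and 0.012 without male replicate 1, and that of Fn1 with it was 0.015 without female replicate 5. For both genes it was highest without male replicate 7, at 0.422, and was 0.197 without male replicate 5.

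Zeb2 and the streak list had r = -0.79 (permutation p = 0.00262, adjusted p = 0.0873) and rho = -0.60. The list's value is a mean of genes that went different ways. Its members Tbx6 and Msgn1 were, like Zeb2, highest in male replicate 7, where Eomes was lowest. Without male replicates 7 and 2, the extremes of the list, r of Zeb2 with it was -0.46 with a permutation p of 0.175. This removal too narrows the range. With a single embryo left out, r lay between -0.93 and -0.65. The adjusted p was then 0.011 without male replicate 3 and 0.468 without male replicate 7. Epcam and the epiblast list had r = 0.69 (permutation p = 0.0149, adjusted p = 0.248) and rho = 0.72, and r = 0.80 without male replicates 7 and 5. All of these values share each library's normalization. Male replicates 2, 4, 5 and 7 had epiblast list values below 0 and the other 8 embryos had values above it. Within those 8, a choice made after seeing the data, r with the epiblast list was 0.63 for Epcam, -0.38 for Vim, -0.32 for Fn1 and -0.44 for Zeb2. These 8 were chosen on the list's own value, and the narrower range can by itself lower r.

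The genes closest in pattern to each of the 10 were taken as the 3 of highest r over 12 embryos among tested genes with a mean of at least 100 normalized counts. For Epcam, the first was Dnmt3b, the de novo DNA methyltransferase of the epiblast and a member of the epiblast list, at r = 0.91, followed by Mcm2, a subunit of the replicative helicase, at 0.91. For Fn1, the closest were Tbx6, a T-box factor of presomitic mesoderm, at r = 0.94, Smarca5 at 0.94 and Gbx2, a homeobox factor, at 0.93. Both Tbx6 and Eomes are members of the streak list. Tbx6 lay between 335.3 and 948.9 normalized counts in females, and in male replicates 2, 4, 5 and 7 at 1981, 1404, 1343 and 2062. These are the males with the highest Fn1, and they also had the lowest Eomes, a T-box factor of the early streak, at 8952, 15070, 13516 and 5550 against 20563 to 25909 in females. Within the other 8 embryos, Fn1 and Tbx6 had r = 0.77. Tbx6 was picked for its high r with Fn1 over all 12 embryos, these 8 included. The value in the 8 is therefore no separate check of the relation, and the 8 were chosen after seeing the data.

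The other genes had neighbours of mixed kinds. Those of Cdh1 were Ung at r = 0.94, Dbn1 at 0.93 and Ywhag at 0.90, and those of Vim were Cspp1 at 0.93, Elp4 at 0.88 and Psmb1 at 0.87. Those of Snai2 began with Axl, a receptor tyrosine kinase, at 0.90, those of Zeb1 with Ccdc103 at 0.91, and those of Zeb2 with Lsm1 at 0.89. The first neighbours of Crb2, Snai1 and Cdh2 were Josd1 at 0.89, Adamts20 at 0.88 and Kcnc2 at 0.87. They are the highest of very many coefficients over 12 embryos and are given as a description.

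**Figure D5:**
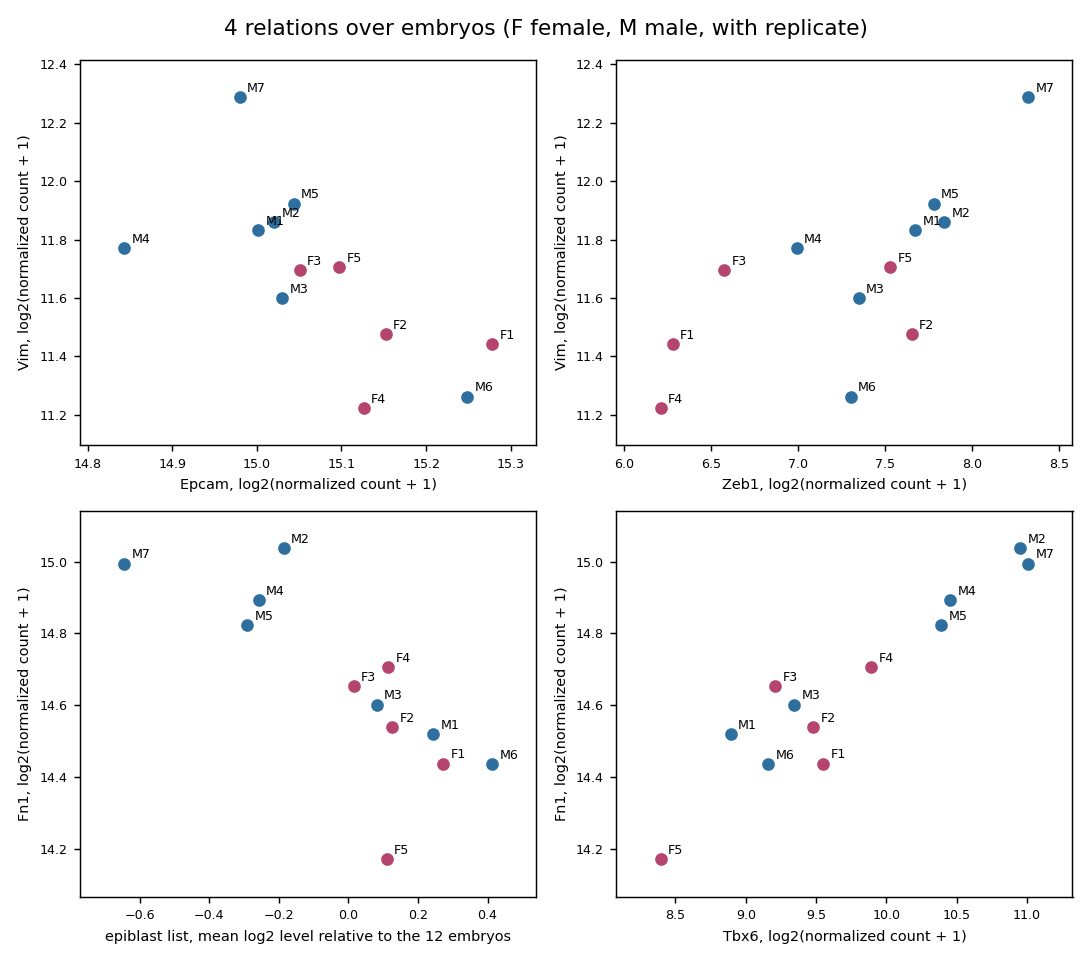
Relations over the 12 embryos of Vim with Epcam and with Zeb1, and of Fn1 with the epiblast list and with Tbx6, as log2(normalized count + 1) except for the list, which is a mean log2 level relative to the 12 embryos; points are embryos labelled by sex and replicate. Male replicates 2, 4, 5 and 7 lie apart in both panels of Fn1, at low epiblast values and high Tbx6.

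The wider adhesion and transition machinery also showed no gene past the limma threshold. In 9 lists of 141 genes, 139 were tested and 0 called. Without adjustment, 13 were higher and 9 lower in females (15.8%, beside 10.8% of all genes tested), and their median log2 difference was 0.03, beside -0.00 for all genes. In the authors' deposited table, 2 of the 139 (1.44%) passed an adjusted p of 0.05, a share near the 1.14% of all genes there. Msgn1, a bHLH factor of presomitic mesoderm, was at 7.7 ± 3.88 normalized counts (SD, n = 5) in females and 51.7 ± 55 (SD, n = 7) in males. Its adjusted p was 0.0346 in the authors' deposited table and 0.343 by limma. Male replicates 4 and 7 were at 106.6 and 151.7 normalized counts. The other males lay between 9.02 and 29.9, which overlaps the females at 3.14 to 12.9. Itga3, an integrin chain that binds laminin, averaged 1995 ± 432.4 normalized counts (SD, n = 5) in females and 1182 ± 355.6 (SD, n = 7) in males, with an adjusted p of 0.0353 in the authors' deposited table and 0.232 by limma.

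By list, the 16 adherens junction genes had 0 called and a median log2 difference of -0.13. Ctnnb1, which encodes beta-catenin and links cadherins to the actin cytoskeleton through alpha-catenin, was the most abundant at 49513 ± 4323 normalized counts (SD, n = 5) in females and 53257 ± 6803 (SD, n = 7) in males. The 15 tight junction genes had a median of 0.08, and their most abundant member was Cldn6, a claudin, at 46501 ± 1981 (SD, n = 5) and 41358 ± 3546 (SD, n = 7). The 17 polarity genes had a median of 0.06 and the 12 epithelial transcription and splicing genes 0.04. Their most abundant members were Ezr, the membrane to actin linker ezrin, and Esrp1, an epithelial splicing regulator.

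On the mesenchymal side, the 14 transcription factors had a median log2 difference of 0.06 and the 24 streak ingression regulators -0.03. Of the latter, Eomes was at 23205 ± 1941 normalized counts (SD, n = 5) in females and 15811 ± 7164 (SD, n = 7) in males, and the adjusted limma p was not past the threshold. The 15 fibronectin and laminin receptors had a median of 0.10, and Itgb1, the integrin beta chain shared by many of them, averaged 24208 ± 2959 normalized counts (SD, n = 5) in females and 25145 ± 479.1 (SD, n = 7) in males. The 13 basement membrane genes had a median of -0.07, and the 13 tested of 15 mesenchymal cytoskeleton and matrix genes had 0.08, with Fap at 0 in all embryos. In the basement membrane list, Lamb1 is a laminin chain that parietal endoderm makes in quantity. It was at 47035 in female replicate 5 and 46852 in male replicate 4, against 9943 to 18774 in the other embryos. The same embryos had the highest Snai1, at 5867 and 5836 normalized counts. Whether parietal endoderm had a part in those Snai1 values was not tested.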

How the data were processed

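Per the labels' protocols, paired-end libraries of single embryos were made with a low-input kit. Tools named by the submitters' processing notes are DESeq2 1.34.0, Salmon 1.5.2, STAR 2.7.7a and cutadapt 4.1, with the mm10 build and with no settings given in the sources used here. The authors deposited log2 values per embryo, whose floor of 10.4141 and shape are those of a variance-stabilizing transformation. The authors also deposited each gene's mean signal, in normalized counts, and its log2 fold change with raw and adjusted p-values.

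The closed form of the transformation was inverted to normalized counts. For 25183 of 25451 genes above 0 (98.95%), all 10 genes included, the mean over embryos then matched the deposited mean (relative tolerance 1e-06). In each library, 76.4% to 79.6% of low values fell within 0.1 of whole fragments, so whole reads were not recovered and no count model was used. Taking the most common low value as 1 fragment gave the depths and the floor of 3 fragments. Amplified fragments are not independent molecules, so floors and counting errors cover counting error only.

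The sexes were compared by limma 3.58.1 (R 4.3.3, trend fitted) using log2(normalized count + 1) of the 16455 genes with at least 10 normalized counts in at least 5 embryos, two-sided, with Benjamini-Hochberg adjustment and a threshold of 0.05. Fold changes on this scale understate those of low genes. Correlations used 100000 permutations (exact for males alone and for litter means). Lengths and coordinates are from GENCODE M21 (GRCm38), counted from 1. The fit and the correlation test were tested on simulated data.

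Each embryo is a replicate; embryos of a litter share a mother. The labels give the litter: deviations from the sex means of littermates of opposite sex correlated between -0.04 and 0.07 over genes in litters 3, 6 and 9. The alternatives tried were other pseudocounts, filters and scalings, the deposited log2 values as they stand, litter or replicate number as a block, a robust fit, and leaving out each embryo.

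The 10 genes and all gene and marker lists were chosen with earlier results of these data known. Other genes named are, per list, those past the threshold by limma or in the authors' deposited table and up to 3 of the highest level, the 3 genes most correlated with each of the 10, and marker genes beside a result; Xist and Kdm5d are named as a check of the labels. No column was left unused for want of a sample.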

Additional observations from a re-analysis of the deposited data

Results flagged for a closer look

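Crb2 in female replicate 4 stood apart from the other females, at 2161 normalized counts against 1343 to 1563 in the other 4. The gap to the next female was 0.730 of the whole female range, over Dixon's limit of 0.71 for 5 samples. It was the only such value among 20 groups of values (10 genes in 2 sexes), and chance gives about 1 in 20.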

How the results depend on the processing

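Across 23 alternative settings of the sex comparison, 0 of the 10 genes were called, and their smallest adjusted p was 0.247 (Crb2 without male replicate 4, by limma). The count of all genes called went from 7 to 4 with litter as a fixed block (7 as a random block), to 4 with the replicate block, and ranged from 5 to 9 when each embryo was left out. The replicate numbers are no pairs: same-numbered embryos' deviations correlated between -0.07 and 0.01. By exact permutation, 1 of the 10 genes rather than 3 had an unadjusted p below 0.05. The log2 difference of Snai2 turned from -0.10 to 0.26 with a pseudocount of 10, to 0.02 on the deposited log2 values, to 1.07 with litter as a fixed block (-0.10 as a random block) and to 0.47 with the replicate block, and ranged from -0.49 to 1.17 with an embryo left out. That of Cdh2 turned to -0.04 with the replicate block and ranged from -0.06 to 0.09 (negative without male replicate 1 or 7), and that of Cdh1 ranged from -0.04 to 0.08 (negative without female replicate 1 or male replicate 3), with an embryo left out. The cause was not tested. Relations with marker lists past adjustment ranged from 0 to 1 by Pearson and from 0 to 2 by Spearman with an embryo left out (2 without male replicate 1 and 1 without female replicate 5, lowest adjusted p 0.015 and 0.033), and pairs of the 10 genes from 0 to 1 by Spearman, with an adjusted p of 0.0459 without female replicate 2 and 0.0315 without male replicate 4. With merged exon lengths, levels per kb were 945.1 for Cdh2, 702.0 for Vim, 2233 for Fn1, 16.6 for Zeb1 and 57.8 for Zeb2, since the lengths are larger. Rescaling moved the median log2 difference of all genes to no more than 0.011 below 0. A filter on a mean of at least 100 gave no value for Snai2. Counting error alone is 13% for Snai2 and 7.6% for Zeb1, below their spreads over embryos of 84.1% and 42%.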
